A study of Rattus norvegicus with 12 samples.

Results

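The comparison described here set adrenalectomised rats given corticosterone against adrenalectomised rats without it, in hypothalamic tissue that contains the paraventricular nucleus (PVH). It used 4 of the 12 mRNA sequencing libraries of the series, chosen by their titles: 2 of supplemented ADX (adrenal glands removed, corticosterone supplied) and 2 of ADX (7 days after removal of the adrenal glands). The 2 sham-operated libraries (sham) are given beside them as the level in rats with adrenal glands. All rats were male Wistar of 12 weeks with a wild type genotype. The labels gave no dose, route or duration of supplementation and no time since surgery for supplemented ADX, so the time without adrenal glands may differ between the groups. They also did not state if each replicate came from 1 animal or from several, and no group was described as ADX with vehicle.

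Corticosterone, the chief glucocorticoid hormone in rats, is released by the adrenal cortex under control of the pituitary. It acts through the glucocorticoid receptor and the mineralocorticoid receptor, which are transcription factors, and it lowers its own drive by feedback on the corticotropin-releasing hormone neurons of the PVH. Adrenalectomy removes the hormone and, with the adrenal cortex, aldosterone. Many known glucocorticoid target genes of the brain are active in astrocytes, endothelial cells and oligodendrocytes as well as in neurons.

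The libraries held 36249006 and 31810257 fragments in supplemented ADX, 33137737 and 31262274 in ADX, and 25724232 and 27797278 in sham. Of 17310 identifiers, 12856 passed the filter on low counts and were tested. The PVH transcription factor gene Sim1 was present in all 6 libraries (49.0 and 47.3 CPM, counts scaled to library size, in supplemented ADX, 53.8 and 49.2 in ADX, 39.9 and 49.7 in sham). The growth hormone and prolactin genes of the pituitary, Gh1 and Prl, were at 0 counts in all 6. Summed over 17 tested thalamus markers, the level was 1567.6 and 1636.0 CPM in supplemented ADX and 1479.1 and 1672.1 CPM in ADX, so these groups overlapped, against 1913.6 and 2558.1 CPM in sham. The authors processed the reads of supplemented ADX and ADX in separate runs of the Cuffdiff software, with sham in the run of ADX. A difference between these runs and one between supplemented ADX and either other group therefore cannot be told apart. In tissue RNA, fewer cells of a type and less RNA per cell cannot be told apart either.

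Supplemented ADX differed from ADX by little in this tissue. The median absolute log2 fold change was 0.053, and 91.5% of genes lay within 0.25 of no difference on the log2 scale. Of 42 genes with an absolute log2 fold change of at least 1, only 3 reached a mean log2 CPM of 1. At an adjusted p under 0.05 (edgeR's quasi-likelihood test, adjusted over all genes tested), 4 genes were called, which is 0.0311% of those tested. Htra1 and Aifm3 rose with supplementation, and Slc7a11 and Igfbp5 fell. DESeq2 called 13 genes (0.101%), these 4 among them. An unadjusted p under 0.05 was reached by 521 genes (4.05%), 265 of them higher (2.06%) and 256 lower (1.99%).

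Htra1, which encodes a secreted serine protease that cleaves matrix proteins, stood at 59.6 and 53.3 CPM in supplemented ADX, against 39.0 and 33.8 CPM in ADX and 67.1 and 65.6 CPM in sham. Both supplemented libraries lay above both ADX libraries and below both sham libraries. The difference from ADX was 0.63 ± 0.08 on the log2 scale (± SE, adjusted p = 0.0149), a 1.55-fold higher level. Aifm3, a gene of the apoptosis-inducing factor family, stood at 61.6 and 55.6 CPM in supplemented ADX, against 42.5 and 41.1 CPM in ADX and 61.6 and 59.8 CPM in sham. The supplemented libraries overlapped with sham and not with ADX (log2 fold change 0.49 ± 0.07, adjusted p = 0.0149, 1.4-fold).

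Slc7a11 encodes the transporter of system xc-, which takes up cystine in exchange for glutamate and is prominent in astrocytes. It stood at 141.8 and 139.3 CPM in supplemented ADX, against 198.9 and 184.8 CPM in ADX and 149.2 and 145.1 CPM in sham. Both supplemented libraries were below both ADX libraries and also just below sham (supplemented ADX minus ADX -0.45 ± 0.06, adjusted p = 0.0149). Igfbp5, which encodes a binding protein of the insulin-like growth factors, stood at 78.0 and 81.3 CPM in supplemented ADX, against 104.9 and 116.1 CPM in ADX and 78.3 and 81.9 CPM in sham. The supplemented and sham ranges overlapped, and both ADX libraries were higher (-0.47 ± 0.07, adjusted p = 0.0330).

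**Figure D1:**
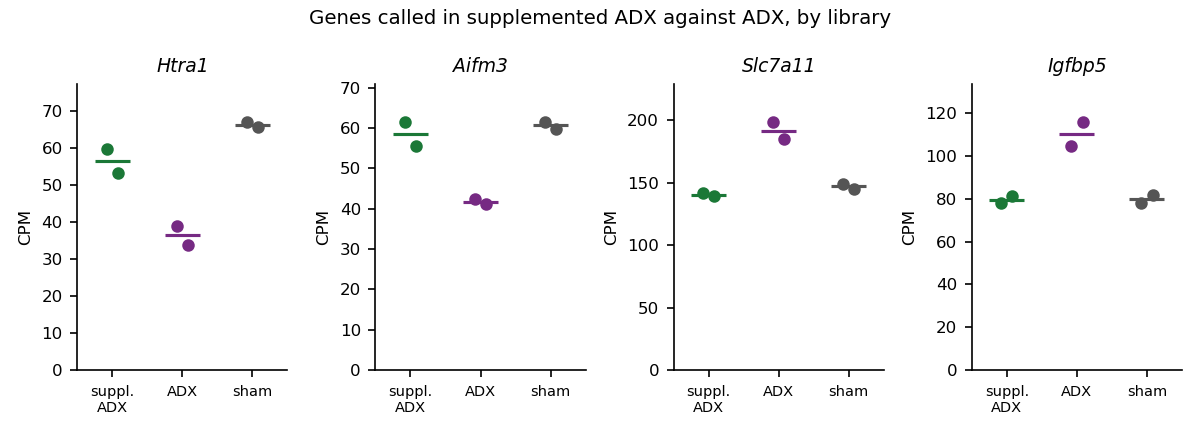
Level of the 4 called genes in each library (y axis, CPM, starting at 0), with a point per library and a line at the group mean, for supplemented ADX (suppl. ADX), ADX and sham. In Htra1 and Aifm3 the ADX libraries are the lowest, at 33.8 to 42.5 CPM, and in Slc7a11 and Igfbp5 they are the highest.

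The same fit gave each of these genes against sham, in contrasts that share libraries with the one above. For supplemented ADX minus sham the log2 fold change was -0.23 ± 0.08 for Htra1 (adjusted p = 0.357), -0.05 ± 0.07 for Aifm3 (adjusted p = 0.867), -0.07 ± 0.06 for Slc7a11 (adjusted p = 0.778) and -0.01 ± 0.07 for Igfbp5 (adjusted p = 0.985). For ADX minus sham it was -0.86 ± 0.08 for Htra1 (adjusted p = 0.00103), -0.54 ± 0.07 for Aifm3 (adjusted p = 0.00411), 0.38 ± 0.06 for Slc7a11 (adjusted p = 0.0208) and 0.46 ± 0.07 for Igfbp5 (adjusted p = 0.0208). Over all genes tested, supplemented ADX minus sham had 2 calls (0.0156%), Fabp7 and Per2, and ADX minus sham had 30 (0.233%). A gene that passed in one contrast and not in another is not thereby shown to differ between them.

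The 4 calls rested on few libraries and in part on the model. Without supplemented ADX replicate 1, or without ADX replicate 2, the edgeR fit called no gene, with 470 and 407 genes at an unadjusted p under 0.05. Without supplemented ADX replicate 2 it called 4, among them Htra1 and Aifm3, and without ADX replicate 1 it called 3, among them Htra1 and Igfbp5. The directions of all 4 held in these fits, with log2 fold changes from 0.54 to 0.74 for Htra1, 0.41 to 0.56 for Aifm3, -0.50 to -0.39 for Slc7a11 and -0.54 to -0.40 for Igfbp5. Slc7a11 was called in none of the 4, with adjusted p from 0.0890 to 0.342. With a covariate for transcript length, described below, Slc7a11 alone was called (adjusted p = 0.0287), and the adjusted p was 0.276 for Htra1, 0.353 for Aifm3 and 0.517 for Igfbp5.

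Sequence upstream of the gene start was available from RefSeq for 3 of the called genes, and these 250 bases are shown because the glucocorticoid receptor can act through DNA sites near its targets (assembly GRCr8, strand of the gene). The window of Sult1a1 is shown for comparison because it holds the letters searched, in capitals; its level is given with the signalling genes.
Htra1, chr1:194927819-194928068, plus strand: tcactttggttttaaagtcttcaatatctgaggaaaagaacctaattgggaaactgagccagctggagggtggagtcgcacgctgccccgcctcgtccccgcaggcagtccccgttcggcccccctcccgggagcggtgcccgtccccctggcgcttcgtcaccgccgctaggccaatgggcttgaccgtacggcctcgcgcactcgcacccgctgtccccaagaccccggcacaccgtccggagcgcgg
Slc7a11, chr2:136668265-136668514, minus strand: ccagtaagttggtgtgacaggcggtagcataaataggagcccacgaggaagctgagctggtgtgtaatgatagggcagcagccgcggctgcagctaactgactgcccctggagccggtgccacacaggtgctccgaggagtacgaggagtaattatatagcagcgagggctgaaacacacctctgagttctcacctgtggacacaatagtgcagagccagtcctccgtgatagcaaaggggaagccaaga
Igfbp5, chr9:81914188-81914437, minus strand: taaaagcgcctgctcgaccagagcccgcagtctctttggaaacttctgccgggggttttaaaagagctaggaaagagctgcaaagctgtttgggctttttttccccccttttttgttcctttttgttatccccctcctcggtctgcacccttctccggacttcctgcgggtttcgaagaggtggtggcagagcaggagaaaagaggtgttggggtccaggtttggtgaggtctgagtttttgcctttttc
Sult1a1, chr1:190706113-190706362, minus strand: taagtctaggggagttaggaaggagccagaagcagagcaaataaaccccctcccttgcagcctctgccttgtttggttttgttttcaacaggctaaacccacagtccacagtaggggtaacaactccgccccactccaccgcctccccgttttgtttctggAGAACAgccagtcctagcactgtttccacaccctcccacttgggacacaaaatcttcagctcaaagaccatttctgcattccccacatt

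The letters searched were AGAACA, the core of the glucocorticoid response element, with its reverse complement TGTTCT, on both strands, and the paired form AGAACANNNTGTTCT, which contains both. The single core was in 17.5% of 33469 promoter windows of this length and in none of the windows of Htra1, Slc7a11 and Igfbp5. In Sult1a1 it began 89 bases before the gene start. It was in 0 of 15 matched windows of the glial and metabolic list described below and in 3 of 21 of the signalling list (14.3%), and the paired form, in 0.012% of all windows, was in none of these. These counts describe letters in a short window and say nothing about binding, which is also known at distant sites.

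Genes with larger differences that did not pass the test were named by rule, as the 8 highest and the 8 lowest log2 fold changes among 96 genes whose groups did not overlap, whose unadjusted p was under 0.01 and whose mean log2 CPM was 1 or more. Over all genes, the groups did not overlap in 35% (17.4% higher, 17.6% lower). On the higher side, Heph, which encodes the iron oxidase hephaestin, stood at 30.6 and 24.2 CPM in supplemented ADX, against 16.2 and 15.8 CPM in ADX and 32.6 and 34.6 CPM in sham. The supplemented libraries lay between ADX and sham (0.78 ± 0.13, adjusted p = 0.133). Gpd1, the cytosolic glycerol-3-phosphate dehydrogenase, stood at 38.2 and 43.8 CPM in supplemented ADX, against 28.0 and 21.4 CPM in ADX and 34.1 and 26.6 CPM in sham. Its supplemented libraries were the highest of the 6 (0.73 ± 0.16, adjusted p = 0.676).

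The others on the higher side were low in counts or tied to blood and ribosomal RNA. Degs2, a sphingolipid desaturase and hydroxylase gene, had 2.93 and 2.60 CPM in supplemented ADX, against 1.49 and 1.56 CPM in ADX (0.86 ± 0.18, adjusted p = 0.342). Mfi2, which encodes melanotransferrin, had a log2 fold change of 0.71 ± 0.18 and Tm4sf19, a tetraspan membrane protein gene, one of 0.69 ± 0.21. Cd163, the haemoglobin scavenger receptor of perivascular macrophages, had 3.83 and 3.88 CPM in supplemented ADX, against 2.33 and 2.04 CPM in ADX and 2.47 and 3.00 CPM in sham (0.82 ± 0.18, adjusted p = 0.357). The haemoglobin genes stood higher beside it: summed over 4 genes they had 39.7 and 33.9 CPM in supplemented ADX, against 26.9 and 21.0 CPM in ADX and 36.5 and 41.6 CPM in sham, with overlap between supplemented ADX and ADX in neither Hba2 (0.73 ± 0.17) nor Hbb (0.67 ± 0.13). The other red blood cell genes tested overlapped between these groups, with Hbb-b1 at 0.49 ± 0.31, Hba1 at 0.11 ± 0.51 and Alas2, an enzyme of haem synthesis, at -0.19 ± 0.51. Haemoglobin genes are near-identical copies, so the split of reads between them is uncertain, and the part of blood in these differences was not tested. Rn5-8s, a ribosomal RNA, had a log2 fold change of 1.36 ± 0.32 (7.66 and 11.9 CPM in supplemented ADX, 4.09 and 3.50 CPM in ADX), and the 18S ribosomal RNA, Rn18s, had 1176.9 and 1717.8 CPM in supplemented ADX, against 794.4 and 942.2 CPM in ADX.

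On the lower side, besides Igfbp5 and Slc7a11, stood Crh, given below, and immune, matrix and adhesion genes. The complement gene C3 had 55.6 and 47.1 CPM in supplemented ADX, against 71.8 and 98.1 CPM in ADX and 64.2 and 47.9 CPM in sham (-0.72 ± 0.20, adjusted p = 1). Cd4, a marker of helper T cells that rat macrophages also carry, had 6.62 and 7.04 CPM in supplemented ADX, against 9.94 and 11.6 CPM in ADX and 4.51 and 7.87 CPM in sham (-0.65 ± 0.17, adjusted p = 0.756). For both genes the supplemented and sham libraries overlapped. The extracellular protease gene Adamts18 had -0.70 ± 0.19, the carboxypeptidase-like gene Cpxm1 -0.55 ± 0.12 (adjusted p = 0.357) and the protocadherin gene Pcdhb6 -0.58 ± 0.19.

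Among known glucocorticoid-responsive genes of glia and metabolism, nearly all members lay on the higher side in supplemented ADX. Of 24 tested, 22 had a positive log2 fold change, with a median of 0.296 against -0.000 over all genes, of which 49.8% were positive. With a covariate for transcript length, described below, 19 of 24 were positive and the median was 0.104. Both supplemented libraries were above both ADX libraries in 20 members (83.3%, against 17.4% of all genes) and below them in 1 (4.17%, against 17.6%). Only Aifm3 was called (0.0156% of all genes were called higher), and 11 members had an unadjusted p under 0.05 on the higher side and none on the lower. The list includes 7 genes that earlier results on these data had named (Aifm3, Prodh, Abcg2, Gpd1, Gjb6, Glul and Mfsd2a), so its direction is not independent evidence. Without them, 15 of 17 members were positive, 13 without overlap, with a median of 0.117 (12 of 17 and 0.074 with the length covariate).

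Prodh, proline dehydrogenase, a mitochondrial enzyme of proline breakdown, stood at 95.9 and 84.4 CPM in supplemented ADX, against 67.2 and 63.2 CPM in ADX and 86.7 and 87.1 CPM in sham. Its supplemented libraries spanned the sham level (0.47 ± 0.07, adjusted p = 0.0653). Abcg2, an efflux transporter of the blood-brain barrier, stood at 20.6 and 21.0 CPM in supplemented ADX, against 16.0 and 15.5 CPM in ADX and 20 and 21.7 CPM in sham. It too overlapped with sham and not with ADX (0.40 ± 0.07, adjusted p = 0.103). The astrocyte connexin gene Gjb6 had 66.9 and 62.8 CPM in supplemented ADX, against 51.7 and 49.2 CPM in ADX and 64.6 and 66.2 CPM in sham (0.36 ± 0.08, adjusted p = 0.357). The aldolase gene of astrocytes, Aldoc, had 735.0 and 661.8 CPM in supplemented ADX, against 556.6 and 545.0 CPM in ADX and 750.5 and 757.0 CPM in sham (0.34 ± 0.08, adjusted p = 0.546). Aldoc overlapped with neither group and lay nearer to sham.

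Astrocyte markers as a whole lay on the same side by less. Of 15 astrocyte markers, 13 were positive (median 0.058) and none was called. Without overlap, 8 were higher (53.3%, against 17.4% of all genes) and 1 was lower (6.67%, against 17.6%). Their summed level was 10106.4 and 9843.2 CPM in supplemented ADX, 9419.9 and 9606.9 CPM in ADX, and 9690.7 and 9415.1 CPM in sham; 5 of the 15 are also in the glial and metabolic list. Against that direction, Aqp4, the water channel of astrocyte endfeet, had 1536.5 and 1529.2 CPM in supplemented ADX, against 1718.2 and 1754.7 CPM in ADX and 1533.7 and 1490.0 CPM in sham (-0.18 ± 0.05, adjusted p = 0.756). The part of astrocyte number in the glial list was not tested.

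**Figure D2:**
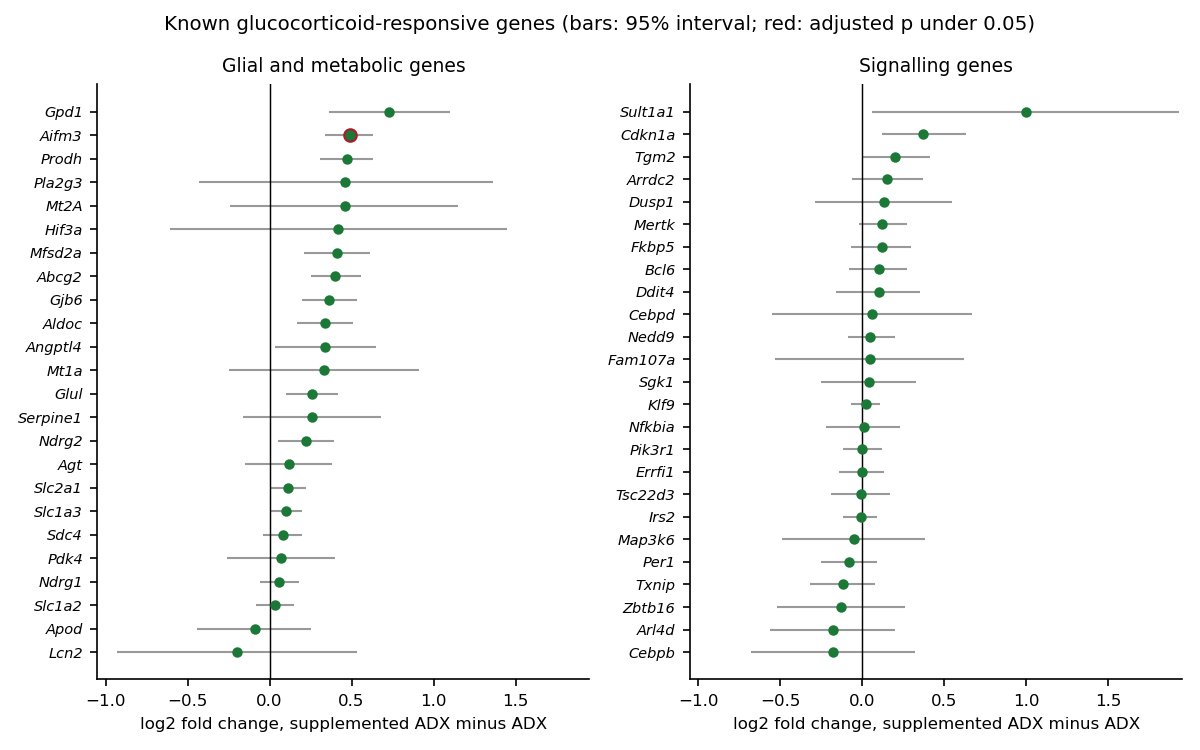
Log2 fold change of supplemented ADX minus ADX (x axis) for each tested member of 2 lists of known glucocorticoid-responsive genes, glial and metabolic (left) and signalling (right), ordered by value, with 95% intervals; the red point passed an adjusted p of 0.05. On the left 22 of 24 points lie above 0 and on the right 16 of 25. Earlier results on these data had named Aifm3, Prodh, Abcg2, Gpd1, Gjb6, Glul and Mfsd2a on the left, so the direction there is not independent evidence.

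Among classic signalling targets of the receptor no gene was called. Of 25 tested, 16 were positive (median 0.040). On the higher side 7 did not overlap (28%) and on the lower 1 (4%), against 17.4% and 17.6% of all genes. Fkbp5, a co-chaperone that dampens the receptor, stood at 29.4 and 29.2 CPM in supplemented ADX, against 27.9 and 26.1 CPM in ADX and 28.8 and 27.8 CPM in sham. Its log2 fold change was 0.12 ± 0.09, with a 95% interval from -0.07 to 0.30. Tsc22d3, which encodes the leucine zipper protein GILZ, stood at 54.5 and 58.9 CPM in supplemented ADX, against 54.8 and 59.2 CPM in ADX and 57.7 and 55.9 CPM in sham, and all 3 groups overlapped. Its log2 fold change of -0.01 ± 0.08 had an interval from -0.19 to 0.17, and its sign changed when single libraries were left out.

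The kinase gene Sgk1 had 26.9 and 26.6 CPM in supplemented ADX, against 24.7 and 27.4 CPM in ADX and 32.3 and 30 CPM in sham (0.04 ± 0.13, interval -0.25 to 0.33), with a sign that also changed when single libraries were left out. The transcription factor gene Klf9 had 74.0 and 74.3 CPM in supplemented ADX, against 73.9 and 72.6 CPM in ADX and 78.8 and 81.6 CPM in sham (0.02 ± 0.04, interval -0.07 to 0.11). Both libraries of supplemented ADX and both of ADX lay below both sham libraries only for Sgk1 and Klf9 among these 4 genes. The largest values in the list were those of the sulfotransferase gene Sult1a1 and the cell cycle inhibitor gene Cdkn1a. Sult1a1 had 2.76 and 2.97 CPM in supplemented ADX, against 1.34 and 1.53 CPM in ADX and 3.14 and 3.26 CPM in sham (1.00 ± 0.41, adjusted p = 1). Cdkn1a had 6.21 and 5.91 CPM in supplemented ADX, against 5.08 and 4.26 CPM in ADX and 6.20 and 5.89 CPM in sham (0.37 ± 0.12, adjusted p = 1).

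Of the peptides that drive the pituitary, Crh, which encodes corticotropin-releasing hormone, stood at 14.3 and 18.9 CPM in supplemented ADX, against 25.6 and 26.9 CPM in ADX and 10.5 and 13.5 CPM in sham. The supplemented libraries lay between the other groups and overlapped with neither. The difference from ADX was -0.67 ± 0.18 (unadjusted p = 0.00608, adjusted p = 1), and its direction held without each library in turn, from -0.88 to -0.47. Avp encodes vasopressin, which acts beside Crh on the pituitary. It stood at 148.9 and 141.8 CPM in supplemented ADX, against 145.0 and 148.2 CPM in ADX and 95.2 and 103.1 CPM in sham. Supplemented ADX and ADX overlapped (-0.01 ± 0.11, interval -0.27 to 0.25), and both were above both sham libraries (0.55, adjusted p = 0.220, for supplemented ADX minus sham). Thalamus markers were higher in sham, with medians of -0.499 for supplemented ADX minus sham and -0.484 for ADX minus sham. The part of dissection in the sham levels of Crh, Avp and the peptide genes below was not tested.

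Oxt, the oxytocin gene, stood at 304.8 and 318.0 CPM in supplemented ADX, against 279.1 and 276.4 CPM in ADX and 220.6 and 383.2 CPM in sham, where it spanned both other groups (0.16 ± 0.25). Trh, the thyrotropin-releasing hormone gene, stood at 81.4 and 83.6 CPM in supplemented ADX, against 76.3 and 86.3 CPM in ADX and 62.5 and 71.3 CPM in sham (0.02 ± 0.13). Over the whole list of 18 tested HPA axis and magnocellular genes, 10 were positive and none was called (median 0.021). The receptor gene Crhr2 had 3.45 and 3.07 CPM in supplemented ADX, against 4.63 and 3.66 CPM in ADX (-0.35 ± 0.17). Other hypothalamic neuropeptide genes were positive in 15 of 17 (88.2%, against 49.8% of all genes), with a median of 0.084 and no call. None had an unadjusted p under 0.05. Without overlap, 29.4% were higher and 0% lower, against 17.4% and 17.6% of all genes. The melanin-concentrating hormone gene Pmch had 583.2 and 510.5 CPM in supplemented ADX, against 481.9 and 501.2 CPM in ADX and 437.9 and 360.8 CPM in sham (0.15 ± 0.09). Pmch is among the 10% of genes with the shortest transcripts, of which 64.7% were positive, as given below.

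**Figure D3:**
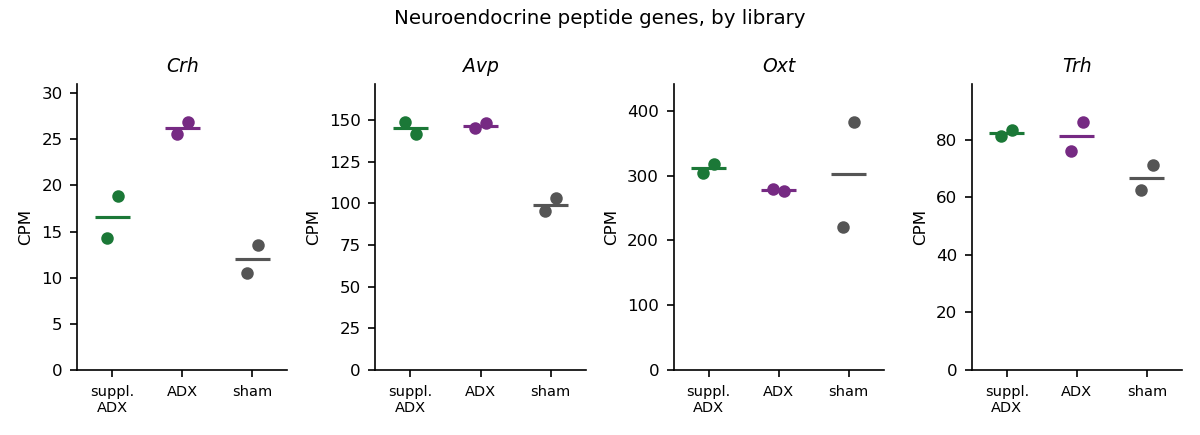
Level of 4 neuroendocrine peptide genes in each library (y axis, CPM, starting at 0), with a point per library and a line at the group mean, for supplemented ADX (suppl. ADX), ADX and sham. Crh in supplemented ADX (14.3 and 18.9 CPM) lies between ADX and sham, while Avp in supplemented ADX (148.9 and 141.8 CPM) lies at the ADX level.

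Neither corticosteroid receptor gene was called. Nr3c1, the glucocorticoid receptor gene, stood at 205.2 and 220.8 CPM in supplemented ADX, against 220.1 and 236.4 CPM in ADX and 220.8 and 236.2 CPM in sham, with overlap between supplemented ADX and ADX (-0.10 ± 0.06, interval -0.23 to 0.03). Nr3c2, the mineralocorticoid receptor gene, stood at 46.2 and 49.9 CPM in supplemented ADX, against 53.1 and 53.4 CPM in ADX and 48.4 and 49.0 CPM in sham. It did not overlap with ADX (-0.15 ± 0.06, adjusted p = 1). Over 18 tested receptor, cofactor and local activation genes, 8 were positive, with a median of -0.011. Of 24 genes for sodium, water and the renin-angiotensin system, through which loss of aldosterone could show, 13 were positive (median 0.008). Subunit genes of the epithelial sodium channel went both ways at low levels. Scnn1g had the largest difference, -1.07 ± 0.39, at 0.636 CPM or less in these 6 libraries. Scnn1b had 1.05 ± 0.48 at 0.602 CPM or less, and Scnn1a had -0.42 ± 0.23 at 2.23 CPM or less.

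Clock genes, some of which are known glucocorticoid targets, were divided, with 7 of 19 positive, a median of -0.016 and no call. Per3 had 81.7 and 87.6 CPM in supplemented ADX, against 97.9 and 100.6 CPM in ADX and 73.8 and 70.4 CPM in sham, so its supplemented libraries lay between the other groups (-0.23 ± 0.05, adjusted p = 0.364). Per2 had 71.4 and 68.8 CPM in supplemented ADX, against 75.7 and 70.1 CPM in ADX and 54.8 and 54.4 CPM in sham. It overlapped with ADX (-0.06 ± 0.05) and was higher than in sham by 0.36 on the log2 scale (adjusted p = 0.0340). Per1 had 48.7 and 50.5 CPM in supplemented ADX, against 55.2 and 49.4 CPM in ADX and 40.2 and 48.7 CPM in sham (-0.08 ± 0.08). The output gene Dbp had a log2 fold change of -0.20 ± 0.07. The signs of Per1 and Per2 depended on ADX replicate 1.

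Immediate early genes, which neurons switch on within minutes of activation, were positive in 21 of 30, with a median of 0.106 and no call. Nr4a1, an orphan nuclear receptor gene, had 13.4 and 13.0 CPM in supplemented ADX, against 10.2 and 6.71 CPM in ADX and 10.4 and 9.33 CPM in sham (0.63 ± 0.16, adjusted p = 0.658). Without ADX replicate 1 it was called, at 0.98 with an adjusted p of 0.0420. Fos had 10.6 and 12.4 CPM in supplemented ADX, against 12.3 and 5.35 CPM in ADX (0.37 ± 0.34), and Egr1 22.9 and 20.1 CPM against 17.5 and 15.1 CPM (0.40 ± 0.23). ADX replicate 2 was the lowest of these 4 libraries for all 3 genes, and without it Fos had -0.10 and Nr4a1 0.37.

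In the pathways around the called genes no further member was called. Among 19 genes of the insulin-like growth factor system, 11 were positive and Igfbp5 was the only call; Igf2bp2, which encodes an RNA-binding protein of the Igf2 message, had 0.34 ± 0.18. Among 26 genes of cystine transport, glutathione and the Nrf2 response, 13 were positive (median 0.002), and Slc7a11 was the only call. The peroxide-reducing enzyme gene Gpx1 had 13.7 and 14.8 CPM in supplemented ADX, against 11.1 and 12.4 CPM in ADX and 14.3 and 16.7 CPM in sham (0.28 ± 0.11, adjusted p = 1). Genes controlled by Atf4, which also acts on Slc7a11, were positive in 13 of 23 with a median of 0.024. Among 34 genes of HtrA proteases and TGF-beta or BMP signalling, 14 were positive (median -0.013), and Htra1 was the only call. The list of proline and mitochondrial redox enzymes also held genes of iron handling, such as Heph, Tfrc and Fth1. Of its 19 genes tested, 13 were positive and Aifm3 was the only call. On the higher side 7 had an unadjusted p under 0.05, against 2.06% of all genes. Heph, Tfrc and Fth1 were among these 7, and Heph is also one of the highest genes named above from the same comparison. Aifm3 and Prodh, both among these 7, are also in the glial and metabolic list and were known from earlier results. This count is therefore not independent evidence.

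**Figure D4:**
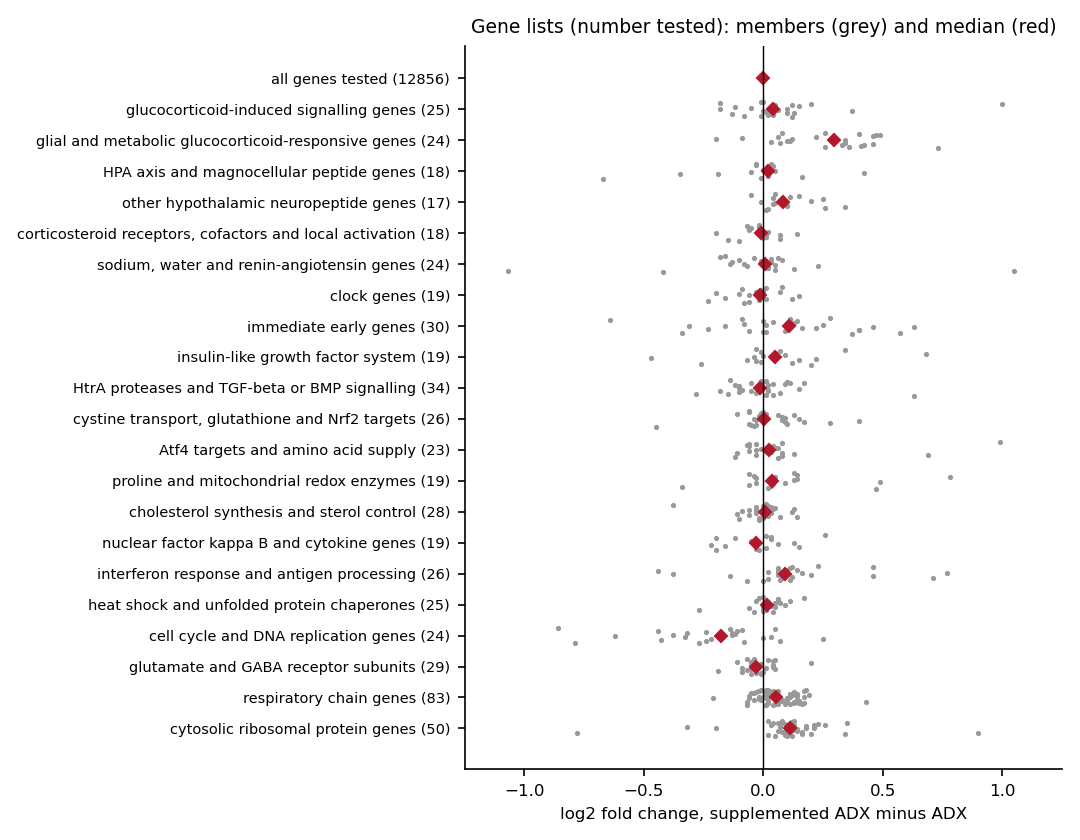
Log2 fold change of supplemented ADX minus ADX (x axis) for the tested members (grey points) and the median (red diamond) of each pathway list, with the number tested in brackets and all 12856 genes in the top row. The median of the glial and metabolic list is 0.296, or 0.117 without the 7 genes that earlier results on these data had named. It is 0.111 for the ribosomal list (mostly small-subunit genes), 0.106 for immediate early genes and -0.177 for the cell cycle list.

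Cell cycle and DNA replication genes lay mostly on the lower side, with 19 of 24 negative, a median of -0.177 and no call. Many were low in counts, such as Cdk1 at 0.375 CPM or less in these 6 libraries. Their summed level overlapped, with 164.3 and 141.9 CPM in supplemented ADX against 166.6 and 155.0 CPM in ADX. Aurkb alone made up 75.7 and 48.6 CPM of this sum in supplemented ADX and 67.2 and 55 CPM in ADX. Without overlap, 10 were lower (41.7%, against 17.6% of all genes) and none was higher (against 17.4% of all genes). Top2a, the topoisomerase of dividing cells, had 1.45 and 1.97 CPM in supplemented ADX, against 2.69 and 3.21 CPM in ADX and 0.981 and 1.02 CPM in sham (-0.79 ± 0.23, adjusted p = 0.785). The proliferation marker gene Mki67 had 8.10 and 8.51 CPM in supplemented ADX, against 9.62 and 10.4 CPM in ADX and 7.81 and 5.89 CPM in sham (-0.27 ± 0.12). For both genes the supplemented libraries lay between ADX and sham. The replication licensing gene Mcm5 had 1.56 and 1.44 CPM in supplemented ADX, against 2.33 and 1.75 CPM in ADX and 1.53 and 1.94 CPM in sham (-0.44 ± 0.20).

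The other pathway lists had no call. Interferon response and antigen processing genes were positive in 21 of 26 with a median of 0.090. Only 2 did not overlap on the higher side (7.69%, against 17.4% of all genes). Cholesterol synthesis genes were positive in 17 of 28 with a median of 0.005, heat shock and unfolded protein chaperones in 17 of 25 with 0.016, and nuclear factor kappa B and cytokine genes in 8 of 19 with -0.033. Glutamate and GABA receptor subunit genes were positive in 8 of 29 with a median of -0.033; the subunit gene Gabra5 had 56.4 and 58.2 CPM in supplemented ADX, against 50.0 and 49.8 CPM in ADX and 48.4 and 51.0 CPM in sham (0.20 ± 0.06, adjusted p = 0.768).

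Markers of cell types that the dissection could hold gave no call in any list. The median was 0.001 over 15 neuron markers, 0.000 over 15 microglia and macrophage markers and -0.000 over 17 endothelial markers. It was 0.031 over 15 oligodendrocyte markers, 0.021 over 17 thalamus markers and -0.012 over 11 PVH neuron markers. Larger medians were 0.123 over 10 arcuate and ventromedial nucleus markers and 0.086 over 11 tanycyte and ependymal markers. In these lists 80% and 63.6% were positive, against 49.8% of all genes. Choroid plexus markers ran from 0.31 ± 0.22 for Folr1 to -0.16 ± 0.31 for Slc4a5, both low in counts. The part of dissection in these values was not tested. Endothelial markers split, with 5 higher and 6 lower without overlap. The shares over all genes were 17.4% higher and 17.6% lower. Beside Abcg2, the drug efflux pump gene Abcb1a had 73.0 and 72.2 CPM in supplemented ADX, against 67.0 and 64.5 CPM in ADX (0.14 ± 0.05), while the receptor gene Tie1 had 47.8 and 42.0 CPM against 52.9 and 54.5 CPM (-0.26 ± 0.08) and the apelin receptor gene Aplnr 10.5 and 9.79 CPM against 11.1 and 13.9 CPM (-0.30 ± 0.13). Among 12 markers of leptomeningeal fibroblasts, 5 were positive; the collagen genes Col1a1 (-0.32 ± 0.11) and Col3a1 (-0.36 ± 0.15) were highest in ADX replicate 2.

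Listed genes of the cytosolic ribosome and of the respiratory chain were mostly positive by small amounts, and many of them had short transcripts. The ribosomal list was chosen by symbol and left out large-subunit genes named Rpl followed by digits alone. It therefore held mostly small-subunit genes, and also a few that are not ribosomal proteins proper, among them Rps19bp1 and Rpl37a-ps1. Of 50 genes tested in this ribosomal list, 47 were positive (median 0.111) and none was called. On the higher side 36 did not overlap, where 17.4% of all genes did not. Rps29, for example, had 38.5 and 37.2 CPM in supplemented ADX, against 30.2 and 34.4 CPM in ADX and 37.8 and 34.8 CPM in sham (0.23 ± 0.08). Of 83 respiratory chain genes, 66 were positive (median 0.052), which became 45 of 83 and 0.014 without supplemented ADX replicate 2. Of these genes, 47 ribosomal and 53 respiratory ones were among the 10% of genes with the shortest transcripts. The median log2 fold change was 0.044 in the shortest 10%, where 64.7% of 1227 genes were positive, and -0.027 in the longest 10%, where 29.7% were. Without the genes of both lists, the shortest 10% kept a median of 0.035, with 705 of 1127 genes positive (62.6%). Large-subunit genes that the ribosomal list left out were not removed, so these 1127 are not free of ribosomal genes. Genes named above from other lists also lay at the ends of this range. Pmch, Hbb, Hba2 and Rn5-8s were in the shortest 10%, as was Avp (-0.01). Slc7a11, C3, Aqp4, Top2a, Mki67, Col1a1 and Col3a1 were in the longest 10%, as was Abcb1a (0.14).

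The same measure per library, the median of the shortest 10% minus that of the longest 10% in centred log2 CPM, was 0.033 and 0.047 in supplemented ADX, -0.043 and -0.016 in ADX and 0.008 and 0.026 in sham. In the other groups it was 0.029 and -0.077 under high corticosterone, -0.068 and -0.074 at 1 h after acute corticosterone, and 0.022 and 0.129 at 3 h. With it as a covariate, the log2 fold change was 0.56 for Htra1, 0.45 for Aifm3, -0.52 for Slc7a11 and -0.39 for Igfbp5, and the ribosomal list had 35 of 50 positive with a median of 0.043. The part of RNA quality or library preparation in these values was not tested.

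**Figure D5:**
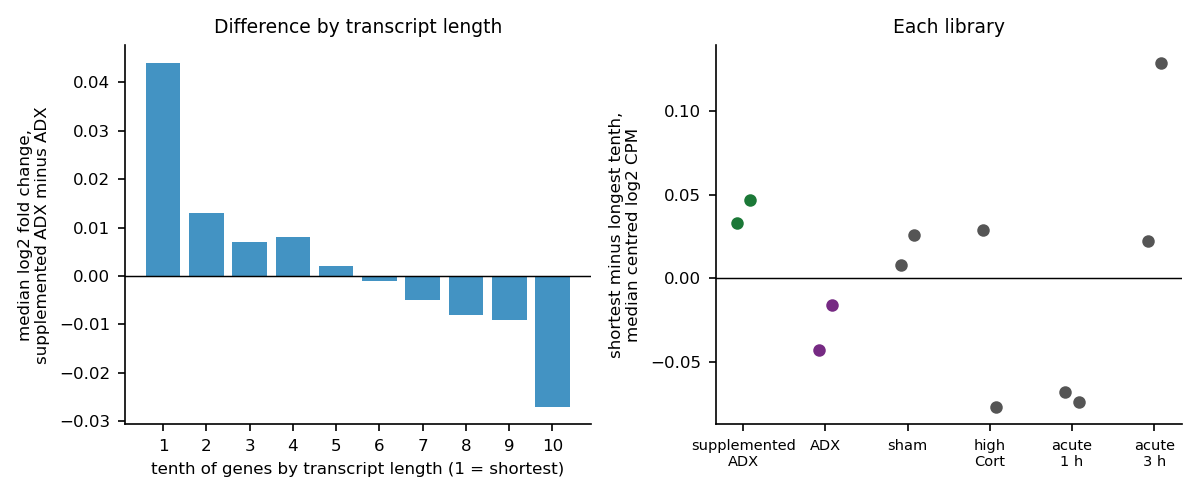
Left, median log2 fold change of supplemented ADX minus ADX (y axis) in 10 equal bins of the tested genes by transcript length, shortest first; right, the shortest minus the longest bin in each library (y axis, median centred log2 CPM), with a point per library of each group. The bars run between 0.044 and -0.027, and the supplemented ADX points lie above 0 and the ADX points below.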

How the data were processed

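RNA from hypothalamic tissue was sequenced on an Illumina HiSeq2000 after TruSeq library preparation, per the labels. Cufflinks 2.2.1, TopHat2 2.1.1 and CASAVA 1.8.2 are named in the submitters' processing notes, with the build rn6. What each tool did is not given in the sources used here, nor are the annotation and the use of strand. Overlapping and antisense genes therefore cannot be told apart. The authors deposited a Cuffdiff read group table per library. Its raw fragments are expected counts, unscaled by the authors; values that were not whole (0.751%, from 233 genes) were rounded, and counts with the status FAIL (4 cells in 3 genes) were kept. The deposited FPKM values and the deposited scaled fragment signal were made by the authors in 2 runs. They entered a test only through the length covariate, which was built from genes ranked by relative transcript length. FPKM per scaled fragment in the run with ADX gave this length. The ratio of FPKM per scaled fragment between runs was within 1% of the median in 98.5% of 12189 genes.

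The analysis used edgeR 4.0.16 in R 4.3.3: filterByExpr (minimum count 10, minimum total 15), TMM and 1 robust quasi-likelihood fit to 12 libraries in 6 groups, with 6 residual and a median of 8.9 prior degrees of freedom and a biological coefficient of variation of 0.047. Tests were 2-sided with Benjamini-Hochberg adjustment over 12856 genes, with calls made below 0.05. CPM values use TMM library sizes. The p values reflect only how these libraries vary, which may be technical, and a permutation of 2 against 2 libraries can give no p under 0.333. Of the identifiers, 681 carry no gene name; 393 of these were tested and none is named. No 2 libraries held identical values. The procedure was tested on simulated data.

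The members, gene lists, rules and tests were chosen with earlier results of these data known, and the lists are described by counts and medians without a set test. Named genes were the called genes, the 8 highest and 8 lowest described in the text, up to 3 of smallest p per list, and a list of hormone, receptor and target genes; the text gives part of them. Sim1, Gh1, Prl and Rn18s are named as checks. Alternatives were RLE factors, no filter, a stricter filter (4 libraries or more at 1 CPM or above), DESeq2 1.42.0, a fit of the 4 libraries, a replicate block, a covariate of 17 thalamus markers, a fit without robust estimation and leaving out each library, where the lone library is assumed to vary like the other groups. The length covariate was added after seeing the data. Promoter windows come from RefSeq (GRCr8), with 92 of 126 named genes matched.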

Additional observations from a re-analysis of the deposited data

How the results depend on the processing

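RLE size factors and the stricter filter gave the same 4 calls. No filter gave 5, with Prodh added, and the thalamus covariate also 5, the 4 among them. DESeq2 called 13 (11 higher, 2 lower; 3739 genes had no adjusted p) and a fit of the 4 libraries alone 33 (24 higher, 9 lower), and both included the 4. Without robust estimation 3 were called, with Igfbp5 at an adjusted p of 0.0520. With the length covariate, added after seeing the data, 1 was called. Leaving out each library gave 0 to 4 calls; the cause was not tested.

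Replicate numbers were not shown to pair the libraries: same-numbered libraries of different groups had deviations correlated between -0.38 and 0.148 (0.0555 for supplemented ADX and ADX). With the replicate block 4 genes were called, the same ones.

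Some signs turned among named genes with small or scattered differences. With the length covariate Oxt had -0.06, Trh -0.12 and Sgk1 -0.13. When each library was left out, the log2 fold change ranged from -0.05 to 0.02 for Avp, -0.06 to 0.11 for Trh, -0.06 to 0.05 for Tsc22d3, -0.15 to 0.01 for Per1, -0.11 to 0.00 for Per2, -0.03 to 0.12 for Sgk1 and -0.10 to 1.10 for Fos; the cause was not tested. Depth limits low genes: the median SE was 0.05 for genes at 5 or more in mean log2 CPM and 0.33 for genes under 1, and 0.45 was the smallest absolute log2 fold change called.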
